A study of Homo sapiens with 6 samples.

Results

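H3K27me3 domains were compared between Low-Chir and Boost-Chir cultures of human neural progenitors, over every H3K27me3 peak on chromosomes 1 to 22. There were 25370 such peaks in the deposited Low-Chir list and 25893 in the Boost-Chir list. Peaks of either list lying within 3 kb of each other were joined, which gave 7736 loci: 4429 held peaks of both lists, 1577 of the Low-Chir list alone and 1730 of the Boost-Chir list alone. The cells were derived from the established embryonic stem cell line H9 and collected on day 11 of differentiation toward midbrain dopamine neurons. All cultures began in 0.7 µM CHIR99021, an inhibitor of GSK3 that switches on canonical WNT signalling, together with SHH C25II, LDN and SB431542, which were withdrawn on day 7. Boost-Chir cultures are labelled 7.5 µM, a concentration given from day 4 to day 10, and the protocol has 3 µM in the medium from day 10. The concentration given to Low-Chir cultures from day 4 is not stated beside their label; the protocol lists 4 levels between 0.7 and 7.5 µM. Each mark and condition had 1 library, so no difference below has a replicate check, no p-value was computed, and condition, culture, precipitation and library cannot be told apart. In chromatin of a whole culture, a change in every cell and a change in the share of cells carrying the mark cannot be told apart either.

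H3K27me3 is the trimethyl mark that Polycomb repressive complex 2 writes on histone H3 and that is read and maintained by Polycomb proteins over silent developmental genes. In neural progenitors it covers the master regulators of the fates a cell has not taken, often as domains many kilobases long, and it is removed or diluted when such a gene is switched on. H3K4me3 marks active and poised promoters, and a gene that carries both marks in a culture is called bivalent.

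Promoter stretches are shown for 5 genes whose H3K27me3 is described below: SP5 and DKK1, direct targets of WNT signalling whose loci had no peak in the Boost-Chir list, EN2 and GSX1, homeobox genes whose loci were shorter there, and SHH, whose locus was longer. They are the 250 bases before the gene's start in RefSeq on GRCh38.p14, 5′ to 3′ on the gene's strand, at chr2:170715087-170715336 (+), chr10:52314031-52314280 (+), chr7:155457879-155458128 (+), chr13:27792233-27792482 (+) and chr7:155812464-155812713 (-). Capitals mark the letters CTTTG, the core of the sequence bound by the TCF and LEF factors of the WNT pathway, or the same letters on the other strand (CAAAG).
SP5: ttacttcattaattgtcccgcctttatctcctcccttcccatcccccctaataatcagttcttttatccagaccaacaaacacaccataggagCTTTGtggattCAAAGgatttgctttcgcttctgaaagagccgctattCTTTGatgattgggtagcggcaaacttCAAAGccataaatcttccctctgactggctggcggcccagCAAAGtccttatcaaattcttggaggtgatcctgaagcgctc
DKK1: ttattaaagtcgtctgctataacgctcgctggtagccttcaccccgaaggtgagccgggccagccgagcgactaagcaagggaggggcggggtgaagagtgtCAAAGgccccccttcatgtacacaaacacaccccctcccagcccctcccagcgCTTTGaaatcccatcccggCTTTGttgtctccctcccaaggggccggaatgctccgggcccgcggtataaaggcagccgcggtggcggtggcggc
EN2: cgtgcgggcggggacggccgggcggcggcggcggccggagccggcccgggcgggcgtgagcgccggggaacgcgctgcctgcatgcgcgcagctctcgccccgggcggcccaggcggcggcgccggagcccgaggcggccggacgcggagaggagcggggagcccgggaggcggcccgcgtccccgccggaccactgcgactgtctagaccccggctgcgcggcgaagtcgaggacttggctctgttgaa
GSX1: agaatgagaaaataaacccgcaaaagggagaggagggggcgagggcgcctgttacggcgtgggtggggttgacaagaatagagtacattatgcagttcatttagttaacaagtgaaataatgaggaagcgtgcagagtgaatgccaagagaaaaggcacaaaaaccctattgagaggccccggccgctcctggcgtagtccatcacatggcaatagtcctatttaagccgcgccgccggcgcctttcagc
SHH: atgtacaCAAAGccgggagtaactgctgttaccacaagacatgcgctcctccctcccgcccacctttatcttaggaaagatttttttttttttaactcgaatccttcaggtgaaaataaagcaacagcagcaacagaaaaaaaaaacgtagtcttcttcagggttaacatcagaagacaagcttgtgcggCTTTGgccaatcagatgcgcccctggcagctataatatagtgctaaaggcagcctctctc

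The SP5 stretch held 5 such matches, a number reached by 0.0854% of the 35116 stretches of this length in the table, and DKK1 held 3, reached by 2.83%. SHH held 2, reached by 12.4%, and EN2 and GSX1 held 0. At least 1 match was present in 42.1% of all stretches. The longer form CTTTGAT, which overlaps the core, occurred once in SP5 on either strand and in none of the other 4, against 2.26% of all stretches. The EN2 stretch held 45 CG dinucleotides, above 99.4% of all stretches, whereas SP5 held 6 and SHH 7, both below the median of 11.

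The first question was whether H3K27me3 in Boost-Chir differed from Low-Chir by 1 factor common to all loci, as a weaker precipitation would give, or at particular loci. Reads at each peak's summit were solved from the deposited fold and p-value and divided by the genome-wide background of the same library, which was 3.12 reads for Low-Chir and 3.03 for Boost-Chir; this quotient is called enrichment here. At each locus the highest summit of either list was compared. The median locus in both lists had 24 Low-Chir reads and 22 Boost-Chir reads, or an enrichment of 7.69 and 7.25. The ratio of enrichment, Boost-Chir over Low-Chir, had a median of 0.926, with an order-statistic 95% interval over loci of 0.921 to 0.931. It was below 1 at 69.2% of the loci, its quartiles were 0.833 and 1.03, and 80% of the loci lay between 0.749 and 1.15.

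The shift was of about the same size in weak and strong loci. In 5 equal bins of strength (the geometric mean of both enrichments), the median ratio was 0.921, 0.931, 0.940, 0.923 and 0.918 from the weakest to the strongest, and the 95% intervals of neighbouring bins overlapped. All 22 chromosomes had a median below 1, from 0.894 on chromosome 21, which had 50 loci, to 0.958 on chromosome 18. By size, the median ratio was 0.931 at the 1256 loci of up to 1 kb of mean covered length and 0.897 (95% interval 0.874 to 0.919) at the 140 loci above 20 kb. Loci with H3K4me3 in both lists had a median of 0.926 (n = 2539) and loci with H3K4me3 in neither had 0.931 (n = 1462). H3K4me3 itself did not share the shift: over its own 13950 loci in both lists the same ratio had a median of 1.08. The local background at the summits was 1.08 times the genome-wide value in Low-Chir and 1.07 times in Boost-Chir. What set the common factor was not tested.

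**Figure D1:**
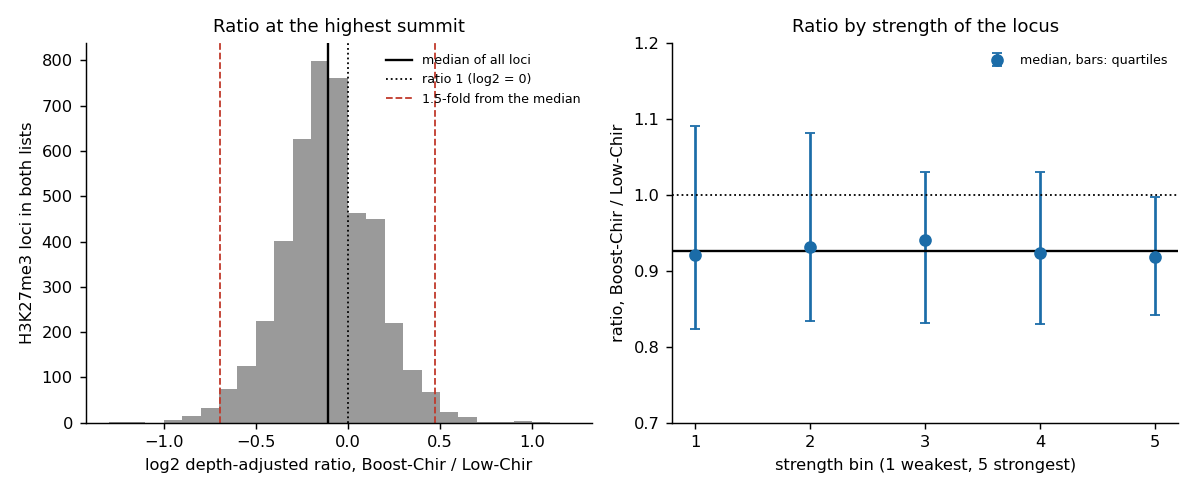
Depth-adjusted ratio of H3K27me3 at the highest summit, Boost-Chir over Low-Chir, for the 4429 loci in both lists. Left, number of loci by log2 ratio; right, median (points) and quartiles (bars) in 5 bins of strength, where every median lies between 0.918 and 0.940.

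Few loci were counted as departing from the common ratio at the summit. A locus was counted as lower or higher when its ratio lay at least 1.5-fold from the median (below 0.618 or above 1.39) and its exact conditional binomial 95% interval, which covers counting error only, left the median out. By this rule 4 loci were lower, 0.0903% of the loci compared, and 5 were higher, 0.113%. Only 0.203% of all intervals left the median out. By counting error alone, exact intervals leave out at most 5% where each ratio comes from reads at 1 fixed position. How far below 5% the share would lie in these data, and what set the share of 0.203%, was not tested. With so low a share the rule was strict, and its small counts do not show that few loci departed. At least 1.5-fold whatever the interval, 69 loci were lower and 56 higher.

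The 4 lower loci were those at GSX1, NOTUM and PTPRN2 and 1 with no assigned gene. GSX1, a homeobox regulator of forebrain and spinal interneuron progenitors (chr13:28358481-28378774), had 47 reads at its highest summit in Low-Chir and 24 in Boost-Chir, an enrichment of 15.1 and 7.91. Its ratio was 0.526 (95% interval 0.307 to 0.877). NOTUM, a secreted enzyme that inactivates WNT ligands and is itself induced by WNT (chr17:79914967-79922749), had 29 and 13 reads, a ratio of 0.461 (0.220 to 0.916), and was named after its values were seen because it lay below the 30 reads set for naming. A locus within the long gene PTPRN2, a receptor-type phosphatase-like protein of secretory vesicles (chr7:157472576-157482559), had 43 and 22 reads, a ratio of 0.527 (0.300 to 0.900), although at its 2 summits paired within 200 bp the summed reads gave 0.958. The lowest ratio, 0.435 (0.240 to 0.758), belonged to chr11:116447094-116478042, to which no gene was assigned, with 45 and 19 reads. Summed reads at paired summits gave 0.741 (0.592 to 0.927) at this chr11 locus with 8 pairs, 0.719 (0.478 to 1.07) at GSX1 with 3 and 0.496 (0.235 to 0.994) at NOTUM with 1. By the deposited fold, which divides by the local background, 3 of these loci stood apart less. The deposited fold was 6.98 and 4.94 at the chr11 locus, a ratio of 0.707, and the same ratio was 0.730 at GSX1 and 0.842 at PTPRN2. Its median over all loci was 0.958, so none of these 3 lay 1.5-fold below it. NOTUM did, with a deposited fold of 7.13 and 3.43. By reads above the local background, the ratio was 0.416 at the chr11 locus, 0.504 at GSX1 and 0.520 at PTPRN2, beside a median of 0.920 over all loci.

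Among the 5 higher loci the one with an assigned gene was SHH, the hedgehog ligand of the floor plate (chr7:155589576-155607595). It had 15 reads in Low-Chir, in a single peak of 0.2 kb, and 30 in Boost-Chir, a ratio of 2.06 (1.07 to 4.12). That Low-Chir peak lay at the edge of the locus, away from the highest Boost-Chir summit, so the ratio compares different positions. The locus chr22:44723939-44730491 had 16 and 31 reads, a ratio of 1.99 (1.06 to 3.90). The locus chr3:195352130-195355328 had 19 and 33 reads, a ratio of 1.79, and its interval of 0.987 to 3.33 includes 1. The other 2 (chr3:187389041-187390799 and chr9:44176667-44177111) each had 14 reads in Low-Chir and 27 and 26 in Boost-Chir.

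**Figure D2:**
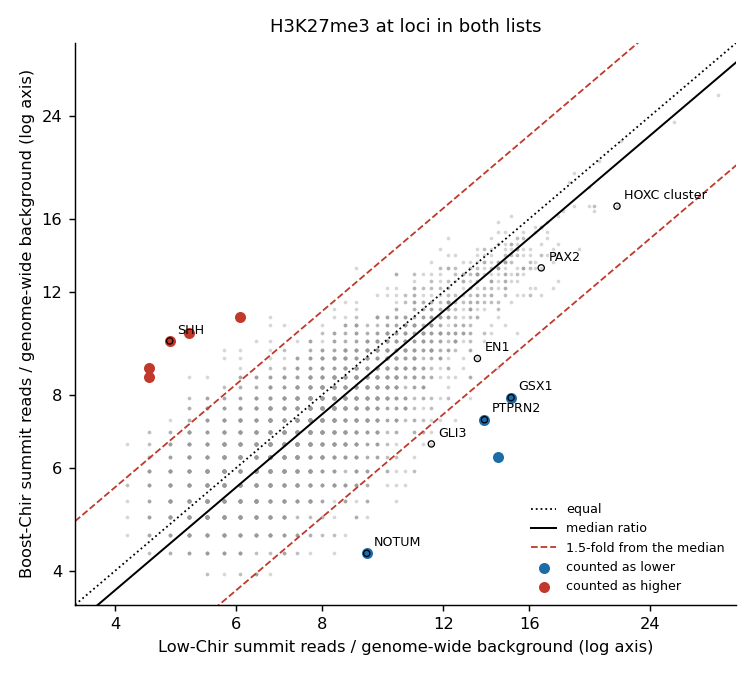
Enrichment at the highest H3K27me3 summit in Low-Chir (x) and Boost-Chir (y), log axes, 1 point per locus in both lists. The points follow the median ratio of 0.926, with 4 loci counted as lower (GSX1, NOTUM and PTPRN2 among them) and 5 as higher (SHH among them).

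The length that peaks covered was compared as well. Low-Chir peaks covered 20.7 Mb and Boost-Chir peaks 18.6 Mb, a ratio of 0.900. When the Boost-Chir peaks were required to reach the Low-Chir limit times the common ratio (18 reads against 20, the median of the Low-Chir list), the lists covered 16.6 and 15.3 Mb, a ratio of 0.919, with 12765 and 14909 peaks. At least 5 kb less was covered in Boost-Chir at 95 loci, 1.23% of all 7736, and at least 5 kb more at 22, 0.284%. Under the matched limit these counts were 75 and 21. That limit drops whole peaks by their summit reads and keeps the called width of the rest, so it does not adjust length within a peak. Among loci in both lists, the share at least 5 kb shorter was 14.3% where the mean covered length was above 20 kb and 3.75% between 5 and 10 kb, so counts in a gene list depend on the size of its domains.

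Summit height moved with length, though both come from the same peaks and neither is independent of the other. The 83 shorter loci in both lists had a median summit ratio of 0.782 (95% interval 0.721 to 0.818), and 74 of them were below the median of all loci. The 18 longer loci in both lists had a median of 1.15 (1.0 to 1.47), and 17 of them were above it. The remaining 4328 loci had a median of 0.930.

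**Figure D3:**
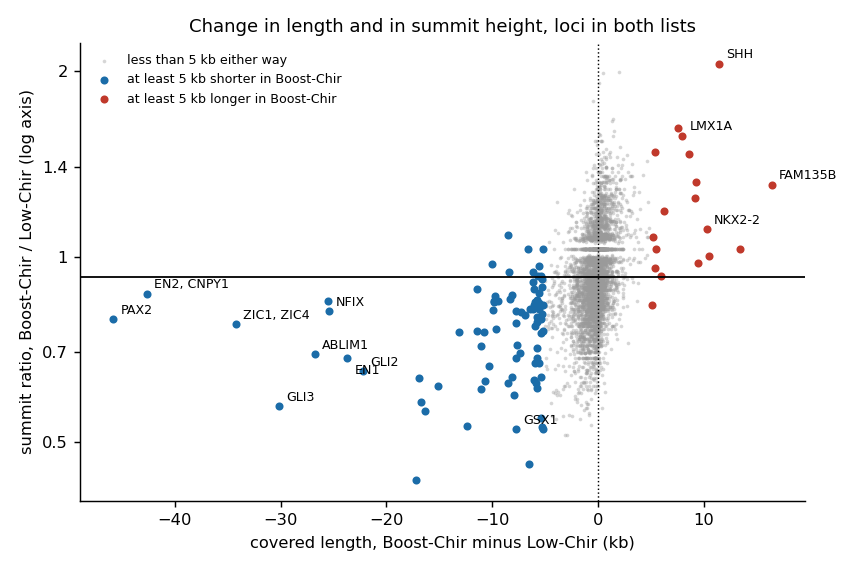
Change in covered length (x, Boost-Chir minus Low-Chir, kb) against the summit ratio (y, log axis) for loci in both lists; the horizontal line is the median ratio. The 83 loci that were at least 5 kb shorter lie mostly below the line (74) and the 18 longer ones mostly above it (17).

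The 5 greatest decreases in covered length were at PAX2, EN2 with CNPY1, ZIC1 with ZIC4, GLI3 and ABLIM1. PAX2, a paired-box factor needed to form the isthmic organizer (chr10:102400112-102524949), was covered over 102 kb in the Low-Chir culture and 56.0 kb in the Boost-Chir one. Its highest summit had 52 and 40 reads, a ratio of 0.792 (0.511 to 1.22). The remaining cover was split into more peaks, 48 against 64. The domain of EN2 and its neighbour CNPY1, an engrailed homeobox gene and a modulator of FGF signalling at the isthmus (chr7:155229116-155329802), was covered over 82.1 and 39.4 kb, with 52 and 44 reads and a ratio of 0.871 (0.569 to 1.33). The ZIC1 and ZIC4 pair of dorsal zinc-finger genes (chr3:147070151-147145863) was covered over 72.8 and 38.5 kb, in 16 and 46 peaks. Within GLI3, the main repressor-forming effector of hedgehog signalling (chr7:42100074-42149545), cover was 31.1 and 0.970 kb, with 36 and 20 reads and a ratio of 0.572 (0.314 to 1.01). A locus at ABLIM1, an actin-binding protein (chr10:116405900-116457523), was covered over 37.1 and 10.4 kb.

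Summits at the same place in both lists were compared too. Overlapping peaks with summits within 200 bp formed 6734 pairs, with a median ratio of 0.931. Summed over a locus with at least 5 pairs, the ratio ranged from 0.686 to 1.36 over 218 loci, around a median of 0.938. A 95% interval lay below that median at 6 loci and above it at 2. By counting error alone such exact intervals leave out at most 5%, and how much less was not computed. Whether these counts exceed that share was therefore not tested. PAX2 was the only one of the 6 with an assigned gene. The lowest ratio, 0.686 (0.530 to 0.885), was at chr12:95704716-95727470. PAX2 had 13 pairs with 334 Low-Chir and 237 Boost-Chir reads, a ratio of 0.730 (0.616 to 0.865). Of the other domains with the greatest decreases only ABLIM1 had at least 5 pairs, 6 with 132 and 109 reads. Its ratio of 0.850 (0.653 to 1.1) has an interval that includes the median. EN2 with CNPY1 and ZIC1 with ZIC4 had 4 pairs each and so lay outside the 218 loci. Their ratios were 0.670 (0.488 to 0.916) and 0.654 (0.494 to 0.861), both with intervals below the median of 0.938. GLI3 had 1 pair, with a ratio of 0.618 (0.303 to 1.22). PAX8, a paired-box gene co-expressed with PAX2 at the isthmus, had 5 pairs with 123 and 89 reads, a ratio of 0.745 (0.561 to 0.986), an interval that reaches past the median.

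**Figure D4:**
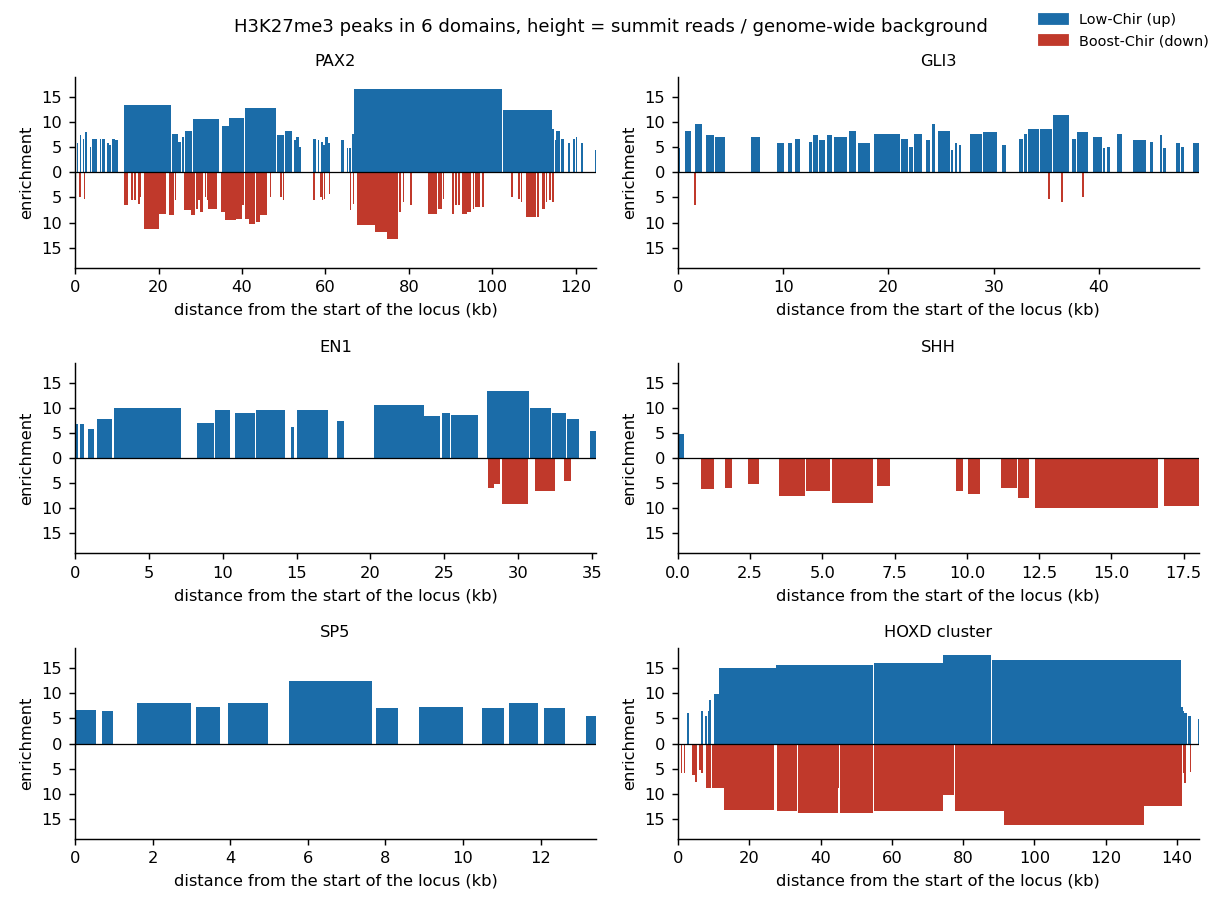
H3K27me3 peaks across 6 domains, by distance from the start of the locus (kb). Bars span a peak and their height is the enrichment at its summit, Low-Chir upward and Boost-Chir downward; SP5 has no Boost-Chir peak, SHH has 1 Low-Chir peak of 0.2 kb, and the HOXD cluster is covered along most of its length in both.

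All 10 isthmus and midbrain genes had an H3K27me3 locus, and PAX2, PAX5, PAX8, LMX1A and LMX1B had several. Taking for each gene the locus with the most cover in both lists together gave 9 loci, each in both lists. Their median summit ratio was 0.871, beside 0.926 over all loci, and none was counted as lower or higher. Their median length ratio was 0.550, beside 0.916 over all loci; 5 were at least 5 kb shorter and 1 longer. Over all 7736 loci these shares were 1.23% and 0.284%. Among loci in both lists they were 14.3% and 1.43% above 20 kb and 12.2% and 2.17% between 10 and 20 kb. In the class of LMX1A, 5 to 10 kb, they were 3.75% and 1.61%, and in that of FGF8, 2 to 5 kb, 1.07% and 0.153%. EN1, the other engrailed gene (chr2:119585593-119620873), was covered over 28.0 and 4.28 kb, with 42 and 28 reads and a ratio of 0.686 (0.410 to 1.13). FGF8, the signal of the isthmic organizer (chr10:103530954-103539736), was covered over 6.98 and 0.945 kb, with 31 and 19 reads and a ratio of 0.631 (0.337 to 1.15). PAX5 had 7 loci along the gene. The one with the most cover in both lists together (chr9:36979209-37007608) had 19.5 and 9.53 kb, and its neighbour at chr9:37017952-37043371 had 20.7 and 3.95 kb. Further loci outside the counts above were also shorter at PAX5 (chr9:36853234-36882898, 17.4 and 7.72 kb) and at PAX2 (chr10:102577274-102598495, 15.3 and 6.95 kb). WNT1 and LMX1B were covered to a similar length in both cultures, at 20.9 and 23.3 kb and at 13 and 12.8 kb. LMX1A, a homeobox factor of midbrain floor-plate progenitors, went the other way: its locus with the most cover in both lists together (chr1:165320630-165334084) had 1.43 and 9.41 kb, with 19 and 29 reads and a ratio of 1.57 (0.851 to 2.97). A further LMX1A locus (chr1:165201473-165224852) had no Low-Chir peak and 5.99 kb of cover in Boost-Chir.

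Of 8 WNT target genes, 3 (AXIN2, LEF1 and NKD1) had no H3K27me3 locus in either culture. SP5, a zinc-finger target of the pathway (chr2:171563332-171576757), had 12 peaks over 9.83 kb and 39 reads in Low-Chir and no peak in Boost-Chir. DKK1, a secreted WNT antagonist induced by the pathway (chr10:54069422-54076296), had 6 peaks over 2.33 kb and 28 reads in Low-Chir and none in Boost-Chir. The other 3 kept the mark: SP8 was covered over 10.9 and 9.86 kb, LGR5 over 5.38 and 4.44 kb, and TBXT over 10.8 and 8.84 kb. Their median length ratio was 0.826 and their median summit ratio 0.867. A locus missing from a list has no value there, so no ratio is given for SP5 or DKK1. Over all loci, 4429 were in both lists and 1577 in the Low-Chir list alone. Of all loci with 24 to 29 Low-Chir reads, the class of DKK1, 94.7% were also in the Boost-Chir list. With at least 30 reads, the class of SP5, 99.4% were. Outside the list and named after their values, the WNT receptor gene FZD10 (chr12:130640825-130657697) was covered over 11.3 and 0.323 kb and NOTUM over 6.70 and 0.207 kb. WNT5A, a ligand mostly of non-canonical WNT signalling and likewise named after its values (chr3:55513477-55516510), had no peak in Low-Chir and 5 peaks over 2.05 kb with 26 reads in Boost-Chir.

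Hedgehog and floor-plate genes split. PTCH1, FOXA1, FOXA2 and NKX6-1 had no H3K27me3 locus in either list; FOXA1 and FOXA2 are defining floor-plate factors of midbrain dopamine progenitors, and their expression was not measured here. GLI2, an activator of hedgehog targets, had 11 loci along the gene; the one with the most cover in both lists together (chr2:121617532-121662529) had 22.4 and 0.211 kb, in 43 peaks and 1 peak. With GLI3, both of these genes were shorter by over 5 kb in Boost-Chir. SHH was covered over 0.2 and 11.6 kb, and NKX2-2, a ventral homeobox gene (chr20:21483922-21509828), over 12.2 and 22.5 kb with 39 and 42 reads. GLI1, the transcriptional readout of the pathway, had 6.50 and 4.58 kb. Of the 5 loci, 2 were at least 5 kb shorter and 2 longer, beside 1.23% and 0.284% over all 7736 loci. Among loci in both lists these shares were 12.2% and 2.17% between 10 and 20 kb. They were 3.75% and 1.61% between 5 and 10 kb. The median length ratio of the 5 loci was 0.704. Their median summit ratio was 1.06, with a range of 0.572 to 2.06.

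The 5 dorsal loci, 1 each for PAX3, PAX7, MSX1, MSX2 and the ZIC1 and ZIC4 pair, were all shorter in Boost-Chir, 4 of them by at least 5 kb. Their median length ratio was 0.700 and their median summit ratio 0.778. PAX3 and PAX7 had further loci that are not counted here. Over all loci the medians were 0.916 and 0.926. The share at least 5 kb shorter was 14.3% for domains above 20 kb and 12.2% between 10 and 20 kb, the class of MSX1. PAX3 (chr2:223150114-223189704) was covered over 34.9 and 25 kb and PAX7 (chr1:18941869-19006778) over 43.7 and 30.6 kb; both are paired-box factors of the dorsal neural tube.

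The lists of forebrain and eye, hindbrain and caudal, and other-lineage genes had median length ratios nearer 1. The 9 forebrain and eye loci described here (among them SIX3, SIX6, RAX, LHX2 and NKX2-1) had a median length ratio of 1.04 and a median summit ratio of 0.920, and 0 were shorter or longer by 5 kb; the forebrain genes OTX1 and GSX1, which are not in that list, were at least 5 kb shorter. OTX2, which marks forebrain and midbrain, had 8.51 and 6.19 kb of H3K27me3 and 9.57 and 11.1 kb of H3K4me3. LHX2, a LIM homeobox factor of the forebrain and eye, was covered over 33.4 and 33.8 kb. The 7 hindbrain and caudal loci had a median length ratio of 0.975 and a median summit ratio of 0.835. Of these, 2 were at least 5 kb shorter, CDX2 and HOXC, whose length ratios were 0.824 and 0.975. That share was 1.23% over all 7736 loci, and 14.3% among loci in both lists above 20 kb, the class of CDX2 and HOXC. CDX2, a caudal homeobox gene (chr13:28511689-28563037), was covered over 36.5 and 30.1 kb. The HOX clusters, which pattern the hindbrain and trunk, were the 4 longest domains by mean covered length; HOXD was covered over 135 kb in both cultures with 55 and 49 reads, and HOXC over 232 and 226 kb. The 9 loci of other lineages (among them GATA6 for endoderm, TBX5 for heart and MYOD1 for muscle) had a median length ratio of 0.978 and a median summit ratio of 0.912. The dorsal, caudal and isthmic median summit ratios (0.778, 0.835 and 0.871) were lower than the 0.926 of all loci. Loci above 20 kb had a median summit ratio of 0.897. The lists differ in domain size, and its part in these medians was not tested.

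**Figure D5:**
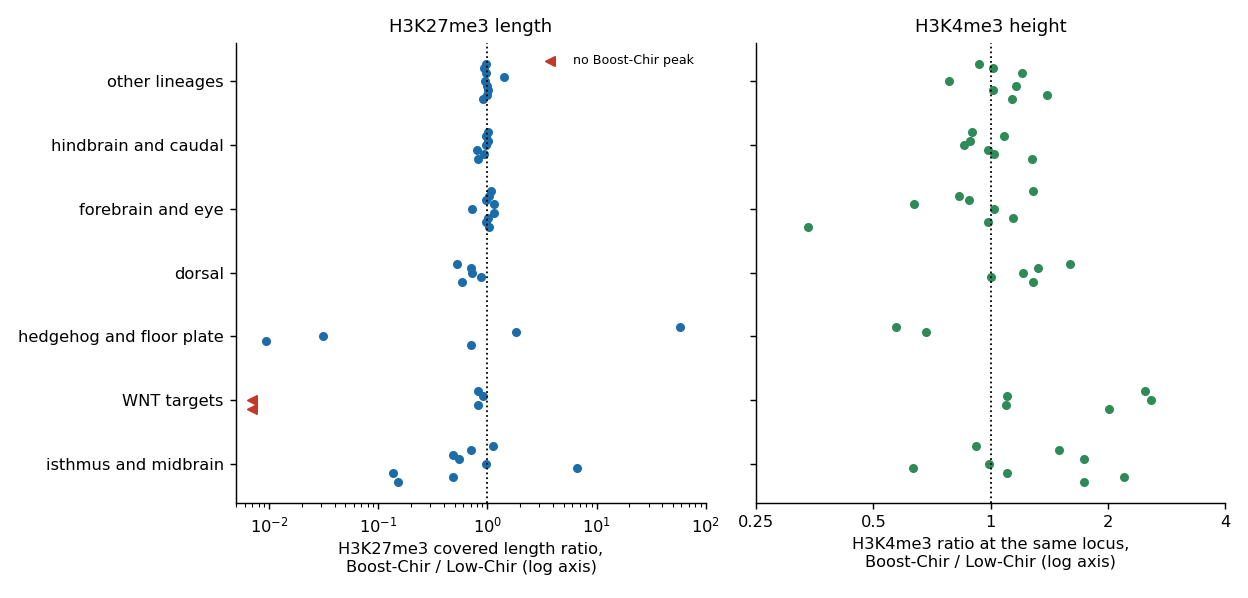
H3K27me3 covered length ratio (left) and H3K4me3 height ratio at the same locus (right), Boost-Chir over Low-Chir on log axes. Each point is a locus, with 1 locus taken per gene of each list. Isthmus and dorsal loci lie mostly left of 1 in length (medians 0.550 and 0.700), forebrain and other-lineage loci near 1 (medians 1.04 and 0.978), and 2 WNT target loci have no Boost-Chir peak.

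H3K4me3 was read at the same loci as a measure that the H3K27me3 comparison did not use, in the same cultures. At the 2539 loci with H3K4me3 in both lists its ratio had a median of 1.01 (95% interval 1.0 to 1.02), and 52.1% were above 1. At the 3 loci counted as lower in H3K27me3 that had H3K4me3 in both lists, the median was 2.19: NOTUM had 2.71, GSX1 2.19 and PTPRN2 1.06. The 2 such loci counted as higher had ratios of 0.570 (SHH) and 0.913. At the 49 loci at least 5 kb shorter, the median H3K4me3 ratio was 1.22 (1.08 to 1.29), with 37 (75.5%) above 1. At the 7 at least 5 kb longer it was 0.700, and 0 were above 1. Loci of the Low-Chir list alone had a median of 1.20 (n = 272) and those of the Boost-Chir list alone 0.978 (n = 235).

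At SP5, EN2, PAX2 and SHH, H3K4me3 differed in the other direction from H3K27me3. SP5 had an H3K4me3 enrichment of 10.9 in Low-Chir and 28.1 in Boost-Chir, covered over 5.84 and 16.7 kb. EN2 and CNPY1 had 9.04 and 19.8, over 1.24 and 20.2 kb. PAX2 had 9.49 and 16.5, over 6.58 and 24 kb. SHH had 20.3 and 11.6, over 8.81 and 5.47 kb. Not every locus paired in this way: DMRTA2, a forebrain factor, had an H3K4me3 ratio of 0.341 while its H3K27me3 was covered over 22.4 and 23.3 kb, and GLI3 and ABLIM1 had no H3K4me3 peak at the locus in either list.

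Loci of 1 list alone were mostly small and close to the calling limit. Their median summit had 17 reads in Low-Chir and 16 in the Boost-Chir ones, the lists' lowest being 12 and 11, and 67.9% and 73.9% were a single peak. Of loci with at least 30 reads in Low-Chir, 99.4% (1088 of 1095) were also in the Boost-Chir list, and 7 were not. In the other direction 643 of 645 were shared. By the highest summit, those of Low-Chir alone were led by SP5, then the start of GLI2 (chr2:121490213-121498694, 36 reads), an unassigned locus at chr4:124770661-124786381 (34 reads), ADAMTS18 (chr16:77464709-77470970, 33 reads), a secreted metalloprotease, and SPRY4 (chr5:141698827-141708995, 33 reads), a feedback inhibitor of FGF signalling. SP5, GLI2, ADAMTS18 and SPRY4 had H3K4me3 in both lists, with ratios of 2.59, 1.55, 1.81 and 2.15. None of the 5 loci leading the Boost-Chir list alone had an assigned gene. Of these, 3 were single peaks of 0.237 to 0.371 kb with a deposited fold of 2.26 to 2.93, low for their 29 to 31 reads; the other 2, at chr11:31079730-31088674 and chr5:135524632-135537053, were covered over 4.31 and 6.48 kb.

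The greatest increases in length were at FAM135B (chr8:139255554-139290423), covered over 1.59 and 18.1 kb with 22 and 28 reads, at chr16:79309359-79353607 over 12.4 and 25.8 kb, at SHH, at chr5:72544372-72565843 over 0 and 11.4 kb, and at chr12:54126035-54196941 over 36.5 and 47.0 kb. CASZ1, a zinc-finger gene named after its values (chr1:10773127-10793626), was covered over 0.552 and 9.80 kb. Of the 95 shorter loci, 36 had an assigned gene, some of these entered after values were seen because the gene was recognised, so no theme is drawn from them. FGF17, an isthmic FGF (chr8:21894952-21929487), was covered over 27.4 and 12.3 kb with 45 and 27 reads. OTX1, a homeobox factor of forebrain and midbrain (chr2:63273073-63291599), was covered over 14.9 and 3.92 kb. PHOX2A, a homeobox gene of oculomotor and trochlear neurons (chr11:71950135-71959820), was covered over 8.48 and 2.76 kb, and GAD1, a GABA-synthesizing enzyme gene (chr2:171669929-171683705), over 12.9 and 3.47 kb. NFIX, a nuclear factor I gene of neural progenitors (chr19:13089895-13214245), was covered over 108 and 82.5 kb. A locus at EBF2, a helix-loop-helix factor gene (chr8:25817547-25843924), was covered over 16.6 kb in Low-Chir and had no peak in Boost-Chir, while another locus of that gene (chr8:25889480-25912685) had 18.2 and 16.0 kb. TP63, a p53-family factor of epithelia, had 32.5 and 22.7 kb, and BMP4, a dorsalizing ligand, had 19.1 and 11.4 kb. EYA2 had 10.4 and 5.14 kb, AUTS2 had 8.35 and 2.56 kb, and LMO2 had 6.81 and 0.822 kb.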

How the data were processed

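Chromatin was precipitated with antibodies to H3K27me3 and H3K4me3 in Low-Chir and Boost-Chir cultures, 1 library each, with 1 input per condition whose reads were not used here. Reads were handled with cutadapt 1.6, BWA 0.7.12 and Picard on hg19, per the submitters' processing notes; the peak caller is not given in the sources used here. The authors' lists give for each peak a fold enrichment (a ratio), a −log10 p, a −log10 q and a score; the deposited score was not used.

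Reads and local background at each summit were solved from the deposited fold, taken as (reads + 1)/(background + 1) after scaling, and the deposited −log10 p, taken as a Poisson tail. In both H3K27me3 lists 100% of peaks gave whole reads within 0.01 and returned the −log10 p within 0.02. For 0.0749% of Low-Chir and 0% of Boost-Chir peaks a second whole solution existed. The form of these equations is an assumption. The most frequent solved background of a list, which scales with depth, served as depth, and solutions with a background below it were not taken. Only called peaks have values, so a ratio needs a peak in both lists.

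Genes were placed on hg19 from positions entered by hand from general knowledge of the public annotation (75 genes and 4 HOX clusters). Against RefSeq on GRCh38.p14, 65 of the 75 shifted equally at both ends or like a neighbour within 1 kb; the others were PAX5, NKD1, GLI3, NKX6-1, PAX7, GBX2, GATA3, WNT5A, TP63 and AUTS2. No coordinate was converted. A locus with no gene assigned holds none of these and may hold others. For a gene with several loci, the one with the most covered length summed over both lists was used. Text names the first 10 loci per direction counted as lower or higher with at least 30 reads, the genes of fixed lists (1 of which is not reported here), and the 5 first by length change and by height in 1 list alone. The members and lists were chosen with earlier results of these data known, and the 5 kb limit was set after lengths were seen. Calculations used Python 3.11.15, numpy 2.4.6, scipy 1.17.1, pandas 2.3.3 and matplotlib 3.10.9, and were tested on simulated data. Alternatives covered the join distance, the choice of summit, the background, the threshold and the depth adjustment.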

Additional observations from a re-analysis of the deposited data

How the results depend on the processing

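The median ratio stayed below 1 under every alternative run. It was 0.920 for reads above the local background, 0.958 for the deposited fold, 0.915 at the 766 loci with at least 60 reads in both libraries together and 0.900 without depth adjustment; under the others (highest pair, highest −log10 p, joining within 1 or 5 kb, top 50% of each list) it lay between 0.926 and 0.930. Counts of lower and higher loci were less steady. With the deposited fold, which allows no counting interval, 297 were lower and 321 higher, and with any interval 69 and 56. The highest summit pair gave 7 lower, the top 50% of each list gave 2 higher, at least 60 reads gave 0 higher, a 2-fold limit gave 2 lower, and distance from a ratio of 1 gave 8 lower and 3 higher. The cause was not tested; the last settings change the limit or the number of loci by construction. Alternatives for covered length were chosen after seeing the data: 67 to 116 loci were at least 5 kb shorter and 11 to 26 longer, the 11 with joining within 1 kb, which splits domains. The H3K4me3 median at lower loci was 1.54 with the deposited fold. No paired analysis was possible because there was 1 library per mark in a culture condition, and no replicate could be left out. Depth limits the precision, at a median of 24 and 22 reads per highest summit, and no ratio exists for a locus of 1 list alone.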
